A study of Mus musculus with 6 samples.

Results

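The histone genes of the Hist1 to Hist4 clusters were followed across 6 RNA libraries of mouse olfactory epithelium, the nasal tissue that holds the olfactory sensory neurons. Members were taken by symbol, as every gene whose name starts with Hist1h, Hist2h, Hist3h or Hist4h and that is listed in both deposited tables. The rule found 67 genes among the 21982 symbols that the tables share. Hist2h2be, the gene of an olfactory H2B variant, was kept apart, and the other 66 were divided by the protein they encode into 6 H1, 18 H2A, 17 H2B, 12 H3 and 13 H4 genes. On the mouse build mm9, 53 members lie on chromosome 13, 10 on chromosome 3, 3 on chromosome 11 and 1 on chromosome 6.

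The study sequenced polyadenylated RNA from mice that lack enzymes placing repressive histone marks. Lysine 9 of histone H3 is methylated by G9a (Ehmt2) and GLP (Ehmt1), and lysine 20 of histone H4 by Suv420h1 and Suv420h2. At E18.5, late in gestation, the libraries came from a g9a heterozygote (G9a het), a g9a knockout (G9a KO), a g9a KO GLP heterozygote (G9a KO GLP het) and a G9a/GLP double knockout (G9a/GLP dKO). Values below are given in this order, and at PND21 with the dhet first, unless a library is named. At postnatal day 21 (PND21) they came from a suv420H1/suv420H2 double heterozygote (Suv420h dhet) and a suv420H1/suv420H2 double knockout (Suv420h dKO). Every animal had a mixed background, chiefly C57/B6, and no wild-type library is among the 6, so the reference libraries also carry mutant alleles, of G9a at E18.5 and of both Suv420h genes at PND21. The label of the embryonic reference names no GLP mutation. The labels do not say which Cre driver, if any, was used, which part of a gene was deleted, or whether animals were pooled.

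Each genotype had 1 library, so no replicate error can be given, every difference compares 2 libraries rather than genotypes, and no p-value was computed. Levels are FPKM, fragment counts divided by transcript length and library depth, as the authors deposited them. The embryonic table also gives the authors' lower and upper bounds for each FPKM. No source used here gives their confidence level, and with 1 library such bounds depend on how the tool models variance. The tables were made separately, so E18.5 and PND21 levels are set side by side without a ratio. In bulk tissue, fewer cells of a type and less RNA per cell cannot be told apart.

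Most histone genes of these clusters are replication-dependent. They are transcribed chiefly in S phase to supply chromatin for new DNA, and their mRNAs end in a conserved stem-loop, bound by the protein Slbp, in place of a poly(A) tail. Some members can also be made with a poly(A) tail, which lets cells that have left the cell cycle go on making histones. Hist2h2be encodes H2be, a variant of H2B found in olfactory sensory neurons, where it replaces the common H2B, and its level is known to be higher in neurons with little odour-evoked activity.

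The kind of transcript end decides how well selection with oligo-dT beads can capture an mRNA, so the ends of the members were read from GENCODE M21 transcripts on GRCm38, found for 66 of the 67. The stem-loop was searched over the whole transcript, on its strand, as 16 bases with 6 paired bases required between the arms. The 16 bases were GG, 3 of any base, TT, any base, T, any base, A, 3 of any base and CC. The stem-loop was found in 45 members, and lay 21 to 58 nt after the stop in the 44 whose longest transcript holds it. It was also found in 43 transcripts of other genes, 0.0732% of the other protein-coding transcripts searched. Of the 21 members without a match, 16 have an annotated transcript that ends 2 nt or fewer after the stop, so that the stretch where a stem-loop would lie is not in the annotation. A poly(A) signal, AATAAA or ATTAAA, lay in the last 40 nt of 16 members, and 14 of these had a stem-loop as well. Hist2h2be and Hist1h2br had the signal and no stem-loop match. The stem-loops of members described below, 5′ to 3′ on the transcript's strand with these 16 bases in capitals, show how little the element varies between histone classes.
Hist1h1c: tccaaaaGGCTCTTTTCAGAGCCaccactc
Hist3h2a: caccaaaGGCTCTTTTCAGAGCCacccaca
Hist3h2ba: acccaaaGGCTCTTTTCAGAGCCaccttcc
Hist1h4d: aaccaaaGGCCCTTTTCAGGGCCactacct
Hist2h4: ccctaacGGCCCTTTTTAGGGCCaaccaca
Hist1h4i: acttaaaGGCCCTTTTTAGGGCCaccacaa

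The last 30 bases of 4 members with a poly(A) signal, shown in capitals, give the other kind of end. Hist1h1c, Hist3h2ba and Hist1h4i appear in both groups, and Hist2h2be only in this one.
Hist2h2be: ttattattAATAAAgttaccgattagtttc
Hist1h1c: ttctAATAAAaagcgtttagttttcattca
Hist3h2ba: attAATAAAtttggttcaattttggccaca
Hist1h4i: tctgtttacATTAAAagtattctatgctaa

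Hist2h2be (mm9 chromosome 3, 96025044 to 96027661) was among the most abundant histone mRNAs in every library. It stood at 85.4, 58.7, 44.1 and 53.2 FPKM in the 4 embryonic libraries. At PND21 it stood at 271 FPKM in Suv420h dhet and 338 in Suv420h dKO. The G9a het library was the highest of the embryonic libraries and G9a KO GLP het the lowest. The authors' bounds overlapped, running from 41.3 to 88.0, 27.1 to 59.4, 20.0 to 45.0 and 24.3 to 53.7 FPKM. Among genes other than olfactory receptors, Hist2h2be lay above 93.1% to 97.2% at E18.5, and above 99.5% and 99.6% at PND21. It ranked 2, 3, 2 and 2 among the members in the embryonic libraries and 1 in both postnatal ones.

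Its share of the histone mRNA was larger in the postnatal libraries than in any embryonic one. Of the summed FPKM of all 67 genes, Hist2h2be held 19.9%, 13.8%, 17.1% and 15.8% in the embryonic libraries. It held 38.4% in Suv420h dhet and 46.2% in Suv420h dKO. Of the FPKM of the H2B genes, Hist2h2be included, it held 28.3% to 40.6% at E18.5, 68.1% in Suv420h dhet and 76.9% in Suv420h dKO. Hist1h2bc, the next H2B gene, held 38.3% to 45.4% at E18.5, 19.1% in Suv420h dhet and 14.4% in Suv420h dKO. These shares are taken within a library, so the scaling of the tables does not enter them. How reads that match several genes were assigned can enter them, and it may differ between the tables. Hist2h2aa1 and Hist2h2aa2, which have the same reading frame, summed to 1.01 FPKM or less at E18.5 and to 149 and 133 FPKM at PND21. The part of this in the shares was not tested. All are shares of what poly(A) selection captured and not of all histone mRNA.

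**Figure D1:**
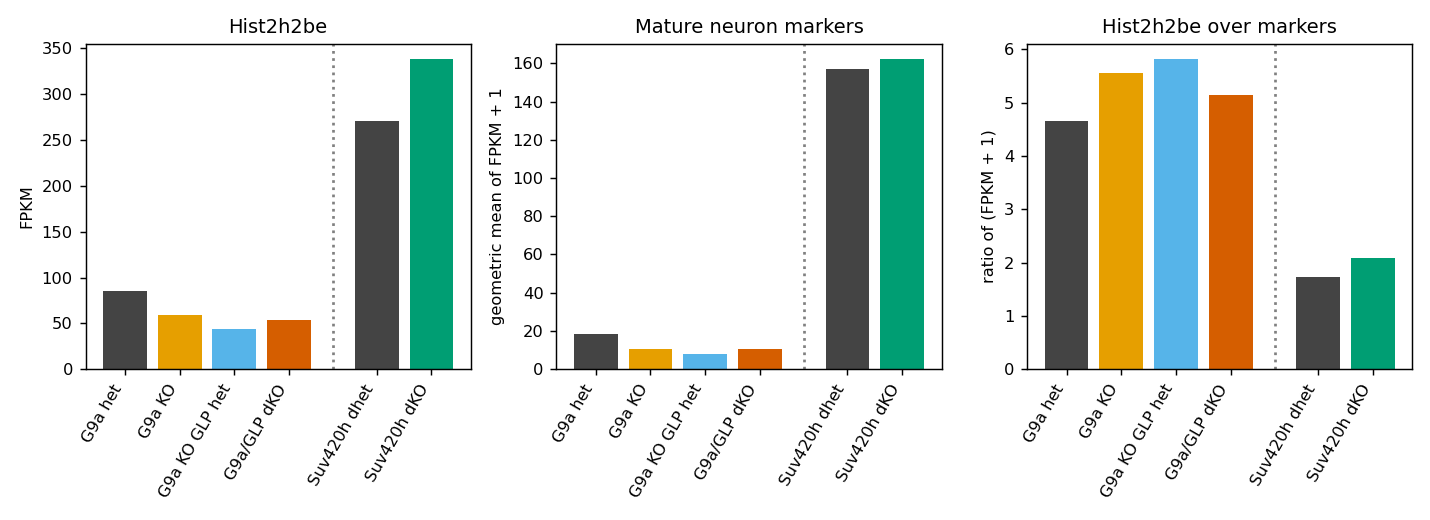
Hist2h2be in the 6 libraries as FPKM (left), the geometric mean of FPKM + 1 of 20 markers of mature olfactory neurons (middle) and the ratio of Hist2h2be to these markers (right). Each bar is 1 library and the dotted line separates the tables; Hist2h2be and the markers were both highest at PND21, and the ratio ran from 4.65 to 5.81 at E18.5 and from 1.73 to 2.09 at PND21.

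Within each table, the libraries had the same order for Hist2h2be and for the mean of markers of mature olfactory neurons, while the sizes of the differences were unlike. The geometric mean of FPKM + 1 over 20 such markers was 18.6, 10.7, 7.76 and 10.6 at E18.5, and none of the 20 was listed at 0 in any library. At PND21 it was 157 and 162. Hist2h2be over this mean was 4.65, 5.56, 5.81 and 5.14 at E18.5, and lower at PND21, at 1.73 and 2.09. Omp, which mature olfactory neurons express at high level, was at 78.6, 36.02, 21.2 and 24.0 FPKM at E18.5 and at 1124 and 1108 FPKM at PND21. Hist2h2be over Omp was 1.09, 1.63, 2.08 and 2.22 at E18.5, and 0.242 and 0.305 at PND21. Relative to G9a het, the log2 ratio of Hist2h2be was -0.53 (G9a KO), -0.94 (G9a KO GLP het) and -0.67 (dKO), none of them 2-fold. Divided by the markers these ratios turned positive, at 0.26, 0.32 and 0.14. The 3 share the G9a het library. With G9a KO as the reference the dKO ratio was -0.14, and with G9a KO GLP het it was 0.27. Markers of supporting cells were also highest in G9a het, with sums of 1263, 915, 652 and 581 FPKM, while those of immature neurons were highest in G9a KO. The part of neuron number in the Hist2h2be differences was not tested.

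Between the postnatal libraries, Hist2h2be had a log2 ratio of 0.32, Suv420h dKO over dhet, and the authors' deposited table gives it a q of 0.228. Divided by the mature neuron markers the ratio was 0.27. Scaling both libraries to the same sum over genes other than receptors lowers the dKO by 0.16 on the log2 scale, and the ratio was then 0.16. Low receptor values at PND21 fell in steps of 1 fragment, and from the size of the steps the Hist2h2be values correspond to about 11341 and 11664 fragments. Counting error is therefore small beside this difference, while the spread between animals is unknown. The sequence of Hist2h2be is not easily confused with that of the other H2B genes. Its open reading frame shared 83.4% (Hist2h2bb) to 88.4% (Hist1h2bn) of bases with theirs, and 2192 of the 2620 nt of its transcript follow the stop codon.

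Over the 66 other genes, histone mRNA was concentrated in a few members. At 5 FPKM or more, 11, 11, 8 and 13 of the 66 were found in the embryonic libraries, 12 in Suv420h dhet and 13 in Suv420h dKO. The 3 highest of the 66 held between 45.4% and 60.7% of their summed FPKM at E18.5, and 51.5% and 49.8% at PND21. Their median was at 1.06, 1.56, 0.453 and 0.793 FPKM in the embryonic libraries and at 2.56 and 1.96 FPKM in the postnatal ones. All 67 genes together made up 0.0747% to 0.128% of the summed FPKM at E18.5, and 0.150% and 0.140% at PND21. G9a KO GLP het had the lowest median and the lowest sum.

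**Figure D2:**
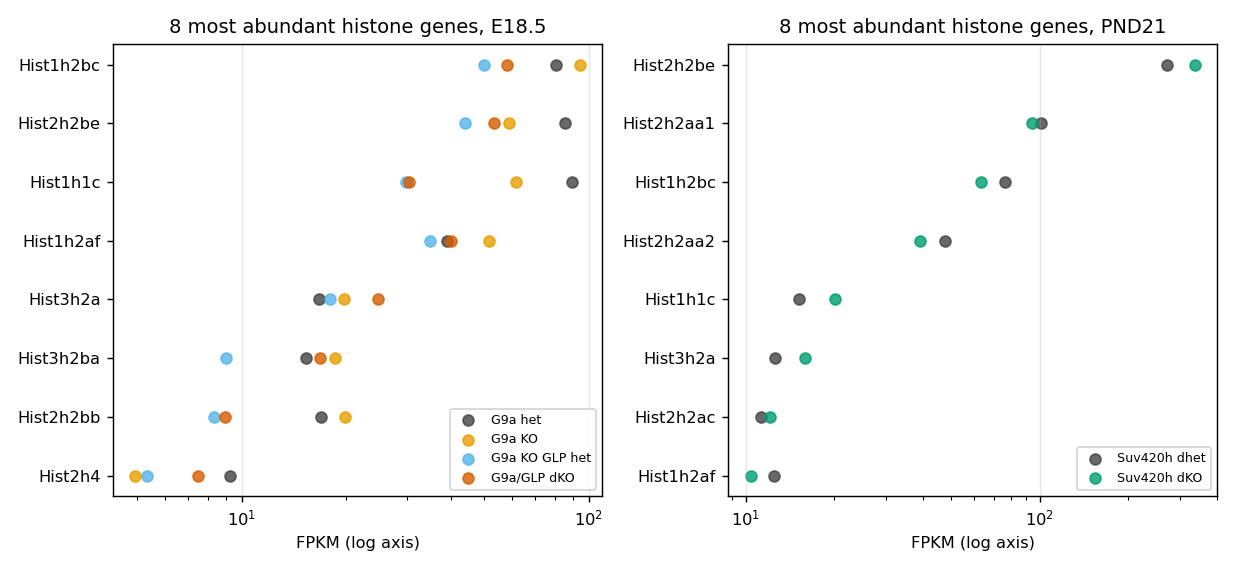
FPKM (log axis) of the 8 most abundant histone genes in each table, with 1 point per library. Hist1h2bc, Hist2h2be and Hist1h1c led at E18.5, and Hist2h2be and Hist2h2aa1 led at PND21, where Hist2h2be stood at 271 and 338 FPKM.

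**Figure D3:**
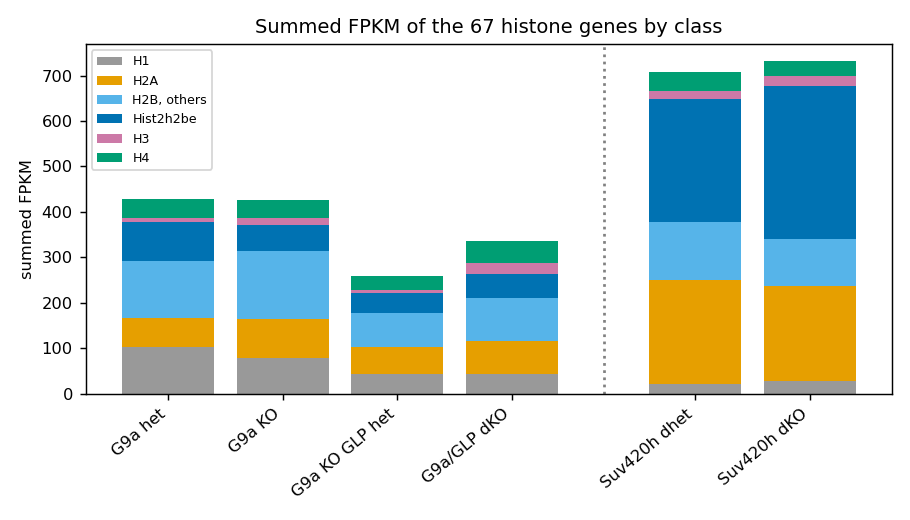
Summed FPKM of the 67 histone genes in each library, stacked by class, with Hist2h2be as a segment of its own and the dotted line separating the tables. H1 made up 12.6% to 24.0% of the sum at E18.5, and H2A with Hist2h2be made up most of it at PND21.

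Linker histones (H1) bind the DNA between nucleosomes. The 6 H1 genes summed to 103, 77.8, 43.4 and 42.3 FPKM at E18.5, and to 21.2 and 27.7 FPKM at PND21. Most of this was Hist1h1c (chromosome 13, 23830676 to 23832236), whose transcript carries both the stem-loop and the poly(A) signal printed above. Hist1h1c was at 89.2, 61.8, 29.8 and 30.3 FPKM in the embryonic libraries, and at 15.2 and 20.1 FPKM at PND21. It was the highest histone gene of G9a het. The authors' bounds were 44.2 to 96.9, 31.2 to 70.6, 14.9 to 37.5 and 15.4 to 38.8 FPKM, so those of the last 2 libraries lay below those of G9a het. Hist1h1e ran from 4.88 to 7.75 FPKM at E18.5 and was at 3.803 and 3.99 FPKM at PND21. Its range on the genome overlaps that of Hist1h2be as listed. Hist1h1b ran from 2.91 to 4.32 FPKM at E18.5 and was at 0.608 and 1.22 FPKM at PND21. Hist1h1a ran from 1.98 to 2.71 FPKM at E18.5 and was listed at 0 in both postnatal libraries, and Hist1h1t, the testis H1, was at 0.802 FPKM or less everywhere.

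The H2A genes made up more of the postnatal sums. They summed to 64.0, 86.3, 58.2 and 73.7 FPKM at E18.5, and to 229 and 210 FPKM at PND21. Most of the postnatal sum came from Hist2h2aa1, at 101 and 94.2 FPKM, and Hist2h2aa2, at 47.6 and 39.2 FPKM. At E18.5 Hist2h2aa2 was listed at 0 in every library, and Hist2h2aa1 was at 0.607, 1.01, 0 and 0 FPKM. Both are listed at the same place on chromosome 3, 96043639 to 96044216, and their open reading frames are identical, so only the sum is informative. It was 0.607, 1.01, 0 and 0 FPKM at E18.5, and 149 and 133 FPKM at PND21. The sources used here do not say how the authors assigned reads that match several genes, and a 0 can be a failed estimate. The part of the separate processing in the difference between the ages was not tested.

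Hist1h2af (chromosome 13, 23625780 to 23626172) was the highest H2A gene of the embryonic table, at 34.8 to 51.6 FPKM over the 4 libraries, against 12.5 and 10.4 FPKM at PND21. Each embryonic value lay above the authors' own bounds, for example 8.15 to 32.1 FPKM in G9a het, and its reading frame has a near-identical copy, so its level is uncertain. Hist3h2a, which has no such copy, was at 16.7, 19.7, 17.97 and 24.7 FPKM and at 12.6 and 15.9 FPKM. Hist2h2ac was at 2.66 FPKM or less at E18.5 and at 11.3 and 12.1 FPKM at PND21. The other H2A genes were at 4.57 FPKM or less at E18.5.

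The H2B genes other than Hist2h2be summed to 125, 149, 75.6 and 94.6 FPKM at E18.5, and to 127 and 102 FPKM at PND21. Hist1h2bc (chromosome 13, 23776068 to 23784349) made up most of this, at 80.5, 94.3, 49.96 and 58.0 FPKM and at 76.2 and 63.2 FPKM. Its M21 transcript runs 742 nt past the stop codon without a stem-loop match, and its reading frame shares 99.47% of bases with that of Hist1h2br. Hist2h2bb was at 16.9, 19.8, 8.34 and 8.96 FPKM and at 4.19 and 0.742 FPKM. Hist3h2ba was at 15.3, 18.54, 9.001 and 16.8 FPKM and at 4.73 and 6.10 FPKM. For these 3 genes G9a KO was the highest embryonic library and G9a KO GLP het the lowest. Hist1h2bj, with near-identical copies, was at 0.328 FPKM or less at E18.5 and at 13.8 and 7.68 FPKM at PND21. Hist1h2ba, the testis H2B, was listed at 0 in every embryonic library and was at 1.90 and 0.565 FPKM at PND21.

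The genes of the core histones H3 and H4 were low. The H3 genes summed to 10.01, 13.7, 7.83 and 24.4 FPKM at E18.5 and to 18.1 and 20.6 FPKM at PND21. The dKO was the highest embryonic library, with Hist1h3d at 1.44, 2.28, 3.20 and 6.54 FPKM and Hist1h3e at 0, 3.48, 0.546 and 5.49 FPKM. Both have near-identical copies. Hist2h3c2-ps, listed as a pseudogene at the same place as Hist2h3c1, was at 7.11, 4.68, 0.689 and 7.39 FPKM, and at 11.3 and 10.3 FPKM at PND21. The H4 genes summed to 41.9, 40.3, 28.8 and 47.8 FPKM at E18.5, and to 40.5 and 34.6 FPKM at PND21. Hist2h4 was at 9.27, 4.94, 5.34 and 7.46 FPKM and at 5.44 and 9.56 FPKM. Hist1h4d was at 5.34, 2.27, 5.81 and 10.9 FPKM and at 3.16 and 1.93 FPKM. Hist1h4i was at 5.29, 5.43, 0.420 and 6.63 FPKM and at 3.38 and 2.58 FPKM. The 3 genes did not share an order of the libraries.

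Listed zeros were frequent in the embryonic table. At 0 were 20, 15, 26 and 27 members, against 2 in Suv420h dhet and 5 in Suv420h dKO. The 10 members at 0 in all 4 embryonic libraries were each at 1 FPKM or more in a postnatal library. Of these 10, 9 belong to the 39 members whose reading frame has a near-identical copy, meaning 98% or more of bases over 80% or more of the shorter frame, and 1 to the 27 without one. Another 8 values, of Hist1h2af, Hist2h2aa1, Hist2h3c2-ps and Hist3h2ba, lay outside the authors' own bounds.

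Transcript ends and levels were compared over the 66 members with a transcript. Members with a poly(A) signal near the end had a median of 2.04 FPKM at E18.5 over 16 genes, from 0 to 60.4, and 5 were at 5 FPKM or more. Members with a stem-loop and no such signal had a median of 1.04 FPKM over 31 genes, from 0 to 6.08, and 2 were at 5 FPKM or more. At PND21 the medians were closer, at 2.81 and 2.55 FPKM, with 6 and 4 genes at 5 FPKM or more. The 19 members with neither had a median of 0.626 FPKM at E18.5 and 2.47 FPKM at PND21, and they include Hist1h2bc and Hist1h2af. These values describe the members, which share sequence, and no test was made. For some members the M21 transcript is longer than the range listed with the FPKM. Hist4h4 has a listed range of 312 bp and an M21 transcript of 2863 nt, and Hist1h4d of 312 bp and 1138 nt. For such members the end used for grouping lies outside the listed range, so level and end may describe different transcripts.

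**Figure D4:**
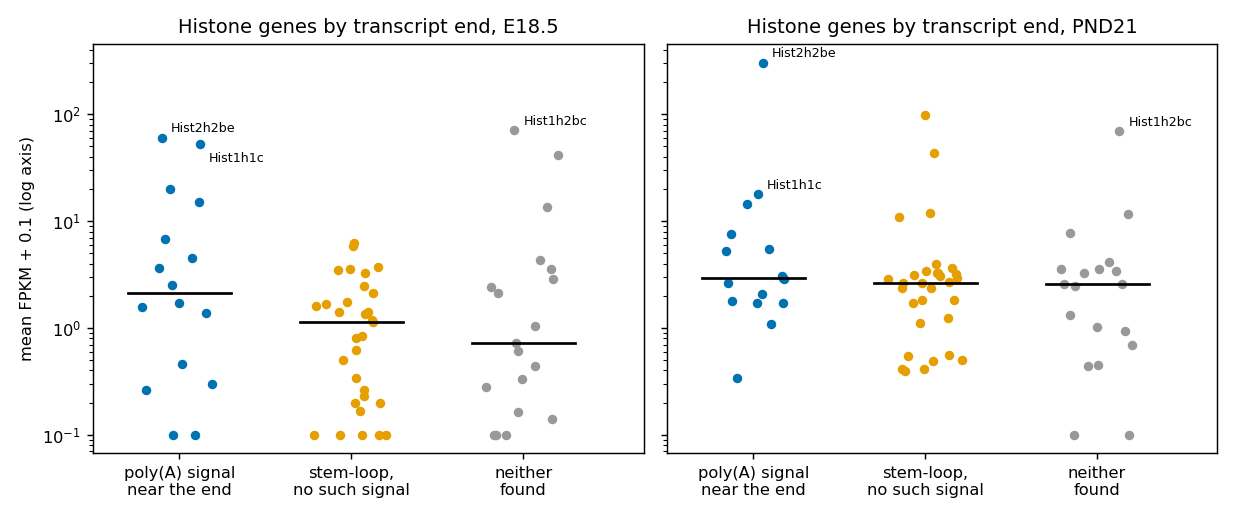
Mean FPKM + 0.1 (log axis) of each histone gene at E18.5 (left, 4 libraries) and PND21 (right, 2 libraries) by the end of its GENCODE M21 transcript. Points are genes and lines are medians. At E18.5 the medians were 2.04 FPKM with a poly(A) signal, 1.04 with a stem-loop and no signal and 0.626 with neither. For some genes the M21 end lies outside the range listed with the FPKM.

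The promoters of 60 members were in the RefSeq promoter table (GRCm38.p6, 250 bases before to 50 after the start). On either strand, the octamer ATTTGCAT was present in 14 of the 60 (23.3%) and in 2.0% of the 27025 promoters of the table. It was found in 7 of 17 H2A and 7 of 15 H2B promoters and in no H1, H3 or H4 promoter. In the promoter counts Hist2h2be was not kept apart from the H2B genes. The promoters with the octamer are not all separate stretches, as some H2A and H2B genes lie head to head. Hist1h2ak, on the minus strand, ends at 21845696 and Hist1h2bn, on the plus strand, starts at 21845992 (mm9). Windows of such pairs can overlap, and the same match can then count for both genes. CCAAT was present in 51 of 60 (85.0%) against 41.1% of all promoters, in every H1, H2A, H2B and H3 promoter and in 3 of 12 H4 promoters. TATAAA was present in 35 of 60 (58.3%) against 15.7%. A match says only that the letters are in the window.

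For the comparisons between libraries, members at 1 FPKM or more in either library entered, and a difference was counted at 2-fold or more on log2(FPKM + 1), which understates the change of low genes. In the G9a/GLP dKO against G9a het, 39 members entered, 4 were at least 2-fold higher and 5 lower, with a median log2 ratio of -0.03. Of the 15079 genes other than receptors that entered, 2.04% were at least 2-fold higher and 2.02% lower, with a median of 0.01. For the members these shares were 10.3% and 12.8%, and most of those counted were low. Of the 15 members that reached 5 FPKM in either library, 2 were higher (13.3%) and 1 lower (6.67%). Of all 11319 genes that reached it, 1.65% were higher and 1.90% lower. Of the 5 lower members, Hist1h1c was at 30.3 against 89.2 FPKM (log2 ratio -1.53), and Hist1h2bh, Hist1h4a, Hist1h4m and Hist2h2ac were listed at 0 in the dKO, with 1.25, 3.12, 1.28 and 1.31 FPKM in G9a het. The 4 higher members, Hist1h3d, Hist1h3e, Hist1h3g (2.97 against 0.236 FPKM) and Hist1h4j (2.98 against 0.798 FPKM), all have near-identical copies. Without members that have such a copy, 0 were higher and 3 lower.

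The authors' bounds of the dKO and G9a het did not overlap for 2 of the 39, Hist1h1c and Hist1h3e. Over all genes that entered, this held for 2.51%. Hist1h3e had bounds of 0 to 0 in G9a het, so for it this rests on the dKO alone. Hist1h4d, without a near-identical copy, had a log2 ratio of 0.91 and Hist1h4k 0.81, and their bounds overlapped those of G9a het. Hist2h2bb had a ratio of -0.85, and Hist1h2bc of -0.47, with overlapping bounds as well. Markers of sustentacular cells, the supporting cells of the epithelium, also differed between these libraries. Of 12 such markers, 7 were at least 2-fold lower in the dKO, their median was -1.06, and they summed to 581 against 1263 FPKM. Their part and that of the mature neurons in the lower Hist1h1c was not tested.

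In G9a KO, 38 members entered against G9a het, 2 were at least 2-fold higher and 1 lower, where 0.996% and 1.02% of all genes were. The median member was at 0.23 and 28 of the 38 were above 0, against a median of 0.02 over all 14957 genes. The higher members were Hist1h2bg, at 6.60 against 2.08 FPKM, and Hist1h3e, at 3.48 FPKM against a listed 0. Hist1h3e was also the member whose bounds did not overlap, where 1.24% of all genes had such bounds. Hist1h4a was the lower one, listed at 0 in G9a KO. Hist1h1c had a log2 ratio of -0.52 and Hist2h4 of -0.79, each with overlapping bounds. Hist1h4f was at 5.77 against 3.83 FPKM (log2 ratio 0.49) and Hist1h4h at 5.21 against 3.62 FPKM (0.43), also with overlapping bounds.

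In G9a KO GLP het, 37 members entered against the same G9a het library, 3 were at least 2-fold higher and 6 lower, where 2.12% and 3.92% of all genes were. The median member was at -0.45, 25 of 37 were below 0, and the median over all 15012 genes was -0.01. Hist1h1c was lower, at 29.8 FPKM (log2 ratio -1.55), and so were Hist1h4i, at 0.420 against 5.29 FPKM, and Hist2h3c2-ps, at 0.689 against 7.11 FPKM. Hist1h2ab, Hist1h4c and Hist1h4m were listed at 0, with 1.44, 1.82 and 1.28 FPKM in the reference. The higher members, Hist1h2ag (1.02 FPKM), Hist1h4j (4.02 FPKM) and Hist2h3b (1.57 FPKM), were low and have near-identical copies. Only the bounds of Hist1h1c did not overlap those of G9a het, against 4.10% of all genes. Of the 19 mature neuron markers that entered, 12 were at least 2-fold lower in this library, and of 12 immature neuron markers 5 were, with Gap43, a growth cone protein, at 38.6 against 92.3 FPKM. Of the sustentacular markers, 4 of 12 were at least 2-fold lower and 1 higher, with a median of -0.66 and sums of 652 against 1263 FPKM. Of the brain and olfactory bulb markers, 7 of 13 were at least 2-fold lower, with a median of -1.25. Their part in the histone values of this library was not tested.

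Over the 36 members with a mean of 1 FPKM or more at E18.5, G9a KO GLP het was the lowest library for 18, the dKO for 7, G9a KO for 6 and G9a het for 5. G9a KO was the highest for 15, the dKO for 11 and the other two for 5 each. No library was the lowest or the highest for all of them. The dKO lay above G9a KO GLP het for 24 of the 38 members that entered that comparison, and among the 14 of them at 5 FPKM or more in either library it lay above for all 14. Of all genes that entered it lay above for 7739 of 14989, and of those that reached 5 FPKM for 5554 of 11149. The median was 0.24 for the 38 members and 0.01 for all genes. At least 2-fold higher in the dKO were 9 of the 38 and 2.76% of all genes, and 2-fold lower were 3 and 0.834%. Against G9a KO the direction differed. The dKO lay below G9a KO for 23 of the 40 members that entered, with a median of -0.30, against -0.01 for all genes. At least 2-fold higher were 4 of these 40 and 7 were lower, where 1.34% and 1.05% of all genes were.

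**Figure D5:**
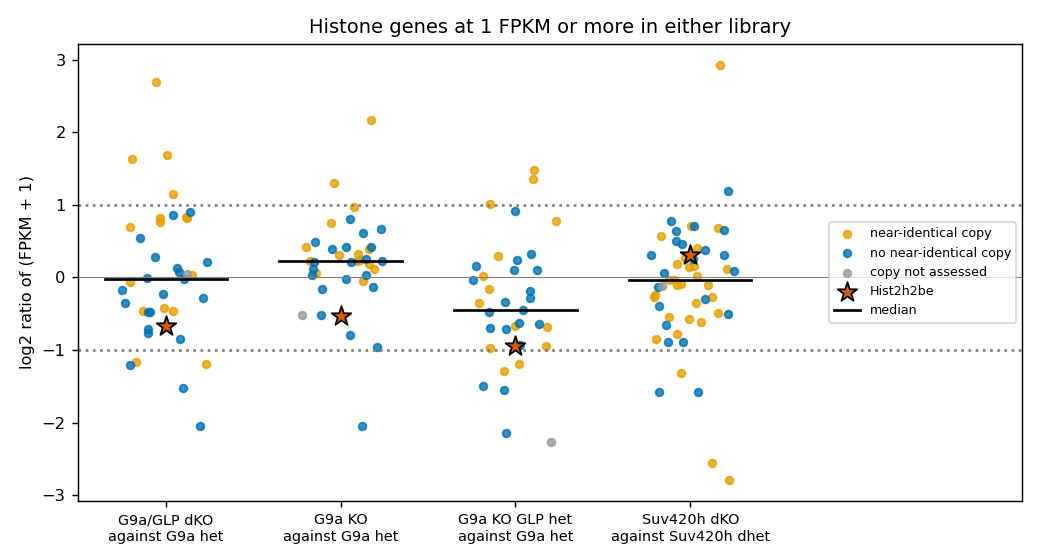
Log2 ratio of FPKM + 1 of each histone gene at 1 FPKM or more in either library, by comparison. Each point is a gene; G9a het is the reference of all 3 embryonic comparisons, Hist1h1c was at -1.53, -0.52 and -1.55 in them, and Hist2h2be was below 0 in all 3 and at 0.32 between the postnatal libraries.

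In Suv420h dKO against Suv420h dhet, 53 members entered, 2 were at least 2-fold higher and 5 lower, where 0.690% and 2.06% of all genes were. The median was -0.03 for the members and -0.06 for all 14351 genes. Part of the differences concern copies listed at the same place. Hist1h2ao was at 5.92 FPKM in Suv420h dhet and listed at 0 in Suv420h dKO (the authors' deposited table has q 0.00284). Hist1h2ap, listed at the same place, was at 0.000291 and 6.63 FPKM (q 0.999 there, in the authors' deposited table). The pair summed to 5.92 and 6.63 FPKM. Hist1h4m and Hist1h4n, also listed at 1 place, summed to 5.80 and 2.68 FPKM, with Hist1h4n at 4.87 and 1.35 FPKM and Hist1h4m at 0.929 and 1.33 FPKM, so here the sum was lower as well.

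Hist1h2an was at 13.7 FPKM in Suv420h dhet and 1.5 in Suv420h dKO (log2 ratio -2.56), about 86.0 and 7.77 fragments by the step size, and the authors' deposited table gives q 0.00989. It too has a near-identical copy. Among members without one, Hist2h2bb was at 4.19 and 0.742 FPKM, about 33.0 and 4.82 fragments, and the authors' deposited table gives q 0.149. Hist4h4 was at 1.999 FPKM and listed at 0, and Hist1h2ak was at 1.53 and 4.76 FPKM. In the authors' deposited table, 2 of the 59 members tested had a q under 0.05, where 4.26% of 15180 genes had. Hist1h1c was at 15.2 and 20.1 FPKM and Hist1h2bc at 76.2 and 63.2 FPKM, for which the authors' deposited table has q 0.448 and 0.604. Skeletal muscle markers also differed between these libraries, with 8 of 8 that entered at least 2-fold lower in the dKO and sums of 126 and 5.82 FPKM, and mesenchyme, cartilage and bone markers summed to 4978 and 1702 FPKM. Their part in the histone values was not tested.

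Several histone genes outside the clusters encode replacement variants that are made throughout the cell cycle. Of a list of 16 replacement and other variant histone genes, 11 entered and none was 2-fold apart in any of the 4 comparisons. Their medians were 0.13 (dKO), 0.04 (G9a KO), 0.06 (KO GLP het) and -0.19 (Suv420h dKO). H3f3b, which encodes H3.3, was at 572, 482, 368 and 348 FPKM at E18.5 and at 408 and 437 FPKM at PND21. H3f3a, the other H3.3 gene, was at 102, 105, 111 and 112 FPKM and at 271 and 266 FPKM. H1f0, the linker histone of cells that have stopped dividing, was at 232, 182, 174 and 155 FPKM and at 60.7 and 55.9 FPKM. H3f3b and H1f0 were thus highest in G9a het, as Hist1h1c was, and H3f3a was not. H2afx, the variant phosphorylated at DNA breaks, was at 59.2, 83.2, 70.7 and 79.6 FPKM and at 13.8 and 10.4 FPKM. H2afz was at 7.35, 7.23, 5.89 and 10.5 FPKM and at 41.6 and 35.6 FPKM.

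Genes that process and turn over histone mRNA were close between libraries. Of 15 that entered at E18.5, 1 was at least 2-fold higher in G9a KO GLP het and none was 2-fold apart in the other embryonic comparisons. That gene was Lsm10, a subunit of the U7 particle that cuts histone pre-mRNA, at 23.5 against 10.8 FPKM. None of 16 was 2-fold apart between the postnatal libraries. Slbp was at 20.0, 23.7, 30 and 24.2 FPKM at E18.5 and at 15.5 and 19.5 FPKM at PND21. It was highest in G9a KO GLP het, the library with the lowest histone sum. Of the histone chaperones, which carry histones to DNA, 23 entered at E18.5 and 22 at PND21, and none was 2-fold apart in any comparison. Chaf1a, the large subunit of the chaperone that works at replication forks, was at 5.01, 7.18, 6.68 and 8.10 FPKM at E18.5.

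At E18.5, genes of S phase and the cell cycle had other medians than the histone genes in G9a KO GLP het and the dKO, and a close one in G9a KO. None of 26 was 2-fold apart, yet 24 of 26 were above G9a het in each of the 3 other embryonic libraries, with medians of 0.25 (G9a KO), 0.33 (G9a KO GLP het) and 0.30 (dKO). The histone medians beside these were 0.23, -0.45 and -0.03. The cell cycle genes summed to 452, 533, 545 and 531 FPKM at E18.5, and to 170 and 154 FPKM at PND21. Mki67, a marker of cycling cells, was at 32.9, 38.4, 38.9 and 35.9 FPKM and at 14.7 and 12.2 FPKM. Pcna, the clamp of the replication fork, was at 30.1, 34.7, 23.6 and 33.6 FPKM and at 27.5 and 34.2 FPKM. The histone values cover only mRNA that poly(A) selection captured, and many members are low or have near-identical copies. The difference between the lists was not tested.

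The targeted genes gave no check of the labels. Ehmt2, the G9a gene, was at 24.5, 30.2, 32.5 and 30.4 FPKM, higher in all 3 libraries labelled as G9a knockouts than in G9a het. Ehmt1 was between 15.8 and 20.8 FPKM, and at 17.3 FPKM in G9a het. Suv420h1 was at 31.0 and 30.6 FPKM and Suv420h2 at 7.92 and 7.35 FPKM in the postnatal ones. FPKM of a whole gene also counts transcript from outside a deleted part, and libraries are named throughout by their labels. The tissue's defining markers were present in all 6 libraries, with Omp at 21.2 FPKM or more. Other marker lists summed as follows, and their part in the histone values was not tested. Immature neuron markers summed to 669, 726, 365 and 624 FPKM at E18.5 and to 751 and 799 FPKM at PND21. Basal and progenitor cell markers summed to 922, 1118, 1262 and 1248 FPKM and to 155 and 149 FPKM, and brain and olfactory bulb markers to 132, 215, 88.7 and 135 FPKM and to 93.5 and 58.6 FPKM. Red cell markers summed to 1893, 4538, 1119 and 2249 FPKM and to 4342 and 2211 FPKM. At E18.5, skeletal muscle markers summed to 1786, 1360, 2350 and 2066 FPKM, and those of mesenchyme, cartilage and bone to 5552, 6018, 6012 and 5323 FPKM.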

How the data were processed

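Per the labels' protocols, RNA was extracted with trizol, purified with oligo-dT magnetic beads and made into libraries with ScriptSeq V2. Alignment to mm9 and quantification used TopHat, Cufflinks and Cuffdiff, per the submitters' processing notes. Versions, gene annotation and the treatment of multiply matching reads remain not given in the sources used here. For each symbol, the authors deposited FPKM, with confidence bounds in the embryonic table. The postnatal table holds the authors' deposited q-values, from a test of 1 library against 1 library.

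Ratios were log2 of FPKM + 1 within a table, for genes at 1 FPKM or more in either library and 2-fold as the size rule. All genes means those other than Olfr genes and very short RNAs (Mir, Rnu, Scarna, Snor and n-R symbols). Members named were Hist2h2be, the 8 highest of each table, the 4 highest and 4 lowest ratios at 5 FPKM or more, and those at 0 in 1 library and at 5 FPKM or more in another. Other members were named after their values were seen. The members and the 12 gene lists (184 entries) were chosen with earlier results of these data known. Copies were found with blastn 2.17.0 between open reading frames of GENCODE M21 transcripts. Python 3.11.15 with pandas 2.3.3 and numpy 2.4.6 was used.

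Depth was not given. At PND21, FPKM times length of 970 low receptors fell in steps of 0.0627 (Suv420h dhet) and 0.0759 (Suv420h dKO) FPKM times kb, with scores of 0.711 and 0.808 where 1 is a perfect fit. The step finder, tested on simulated data, recovered 4 of 4 steps within 5%. Embryonic steps were blurred and no fragments were estimated from them. Fragment numbers are estimates by span length and cover counting error only. Coordinates are those of the tables, written from 1.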

Additional observations from a re-analysis of the deposited data

How the results depend on the processing

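Of 98 alternatives over 16 results, 58 moved a ratio by less than 1.5-fold or a count by at most 1.5 times, and 40 moved one further. A reversed 2-fold difference was looked for only in the medians and the Hist2h2be ratios. None of these was 2-fold, so no reversal could be found. Counts below are members at least 2-fold higher or lower, in the order dKO, KO, KO GLP het (G9a het as reference) and Suv420h dKO; reported counts are 4, 2, 3 and 2 higher and 5, 1, 6 and 5 lower. With a pseudocount of 0.1 FPKM, 9, 5 and 5 were higher in the embryonic comparisons, and 2 (G9a KO), 11 (G9a KO GLP het) and 8 (Suv420h dKO) lower. With a minimum of 5 FPKM, 2, 1, 0 and 1 were higher and 1, 0, 3 and 2 lower, of 15, 15, 12 and 16 members. Of all genes at that minimum, 1.65%, 0.617%, 1.66% and 0.272% were higher and 1.90%, 0.957%, 3.16% and 1.37% lower. On the TPM scale 9, 7, 7 and 4 were higher and 8, 3, 14 and 10 lower; this scale enlarges every value, so by construction the pseudocount and the minimum weigh less. Without members with a near-identical copy, 0, 0, 0 and 1 were higher, and 3 (dKO) and 2 (Suv420h dKO) lower. Where the authors' bounds also had to lie apart, 1, 1 and 0 were higher and 1, 0 and 1 lower. Against G9a KO GLP het, 9 members were higher and 3 lower in the dKO (2.76% and 0.834% of all genes), and Hist2h2be was at 0.27. With G9a KO as the reference, 4 were higher and 7 lower (1.34% and 1.05% of all genes), and Hist2h2be was at -0.14. Divided by mature neuron markers, the Hist2h2be ratios of the embryonic comparisons were 0.14, 0.26 and 0.32. Counts therefore depend on how low, repeated genes are treated; the cause of the changed Hist2h2be sign was not tested. No median of the members, and no result under upper quartile scaling, moved further than these limits. The limit of 1.5-fold is wide beside the medians. That of the dKO was -0.03 against G9a het, -0.30 against G9a KO and 0.24 against G9a KO GLP het, so its sign depended on the reference.

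No paired analysis was possible because each genotype has 1 library and no replicate numbers are shared. Unknown depth limits the embryonic zeros, which cannot be read as absence.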

Other observations

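Hist1h2bq, a histone symbol found in the embryonic table alone and so not among the 67, had 0.0208 FPKM in the G9a het library and 0 in the other embryonic libraries.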
